A study of Mus musculus with 7 samples.

Results

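The genes described here are the glucocorticoid receptor gene, its closest relative, the enzymes that activate and inactivate its hormone in the cell, and 6 genes that the receptor is known to induce. The 10 genes are Nr3c1, Nr3c2, Hsd11b1, Hsd11b2, Zbtb16, Fkbp5, Sgk1, Tsc22d3, Klf9 and Errfi1, out of 19938 genes that the array annotation names by 1 symbol. They were chosen from measured values of this same comparison, because Zbtb16, Fkbp5 and Sgk1 were higher under calorie restriction, so the diet differences of all 10 are given as a description, with no p-value, and nothing is supported with them. Expression was measured on 1 array per sample in Paneth cells sorted from the intestine of 4 month old mice. In the calorie restricted group (4 arrays) the mice received 60% of the calories of freely fed animals for 4 to 7 weeks, and in the ad libitum group (3 arrays) they ate freely over the same period. The labels call the samples biological replicates and give the diet of each. Strain, sex, time of day at collection and any pooling of animals are not stated there. The p-values below set the diet difference against the spread between these samples, which need not be the spread between single animals. Values are log2 expression per transcript cluster (the probes that read 1 gene together), with differences taken as calorie restricted minus ad libitum.

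Glucocorticoids, mainly corticosterone in the mouse, enter cells and bind the glucocorticoid receptor, which is held in the cytosol by chaperones, moves to the nucleus and binds DNA as a pair at inverted repeats known as glucocorticoid response elements. The mineralocorticoid receptor binds the same hormone and the same element. Fasting and reduced food intake are known to raise circulating corticosterone in rodents, and the intestinal epithelium is a known target tissue in which the hormone acts on sodium and nutrient uptake.

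The array values had medians between 7.24 and 7.44 per array and single values ran from 2.97 to 14.67. Of 13409 genes that passed the filter on low values (a mean of at least 6.79 over all arrays), 88 were called higher under calorie restriction, 0.656% of those tested, and 1 was called lower, 0.00746% (limma, Benjamini-Hochberg adjusted p below 0.05). The calorie restricted arrays lay entirely above the ad libitum arrays for 7.14% of genes tested. Paneth markers were bright in every array, with Lyz1 (lysozyme) at 14.26 or more, Mmp7 (the protease that activates defensins) at 13.69 or more and the sorting marker Cd24a at 13.20 or more. Markers of absorptive enterocytes differed between the diets: 27 of 27 tested were positive, with a median difference of 1.06, and 9 were called higher and 0 lower. Their summed level (log2 of the sum of linear values) was 16.62 to 16.83 in the calorie restricted arrays and 15.49 to 16.09 in the ad libitum arrays. The ranges did not overlap, and their part in the differences below was not tested. In such bulk samples more cells of a type and more RNA per cell cannot be told apart. For immune cells 6 of 13 markers and for stromal and blood cells 6 of 12 lay below the filter, and the summed levels of both lists overlapped between the diets (12.96 to 13.17 against 12.99 to 13.07, and 10.44 to 10.60 against 10.55 to 10.71). The immune sum rested mostly on Lyz2, with means of 12.82 under restriction and 12.79 under free feeding. Cd3e, the next highest of that list, had means of 7.55 and 7.62, so the sum says little about the other immune markers. In the lists of the other epithelial types 0 genes were called by limma. Of all genes tested, 54.2% had a positive difference and 9.3% an unadjusted p below 0.05. The share of all genes with every restricted array below the freely fed ones was not counted. Goblet markers were negative in 8 of 9, with a median of -0.20, all restricted arrays below in 2 (Muc2 and Retnlb) and above in 1 (Zg16), and 3 at an unadjusted p below 0.05. Tuft markers were negative in 8 of 8 (median -0.16) and Paneth markers in 13 of 14 (median -0.05), with 0 at an unadjusted p below 0.05 in either list. Enteroendocrine markers were positive in 9 of 10 (median 0.27, 2 at an unadjusted p below 0.05) and stem and cycling markers in 8 of 11 (median 0.02, 0 at an unadjusted p below 0.05). Their part in the differences below was not tested.

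**Figure D1:**
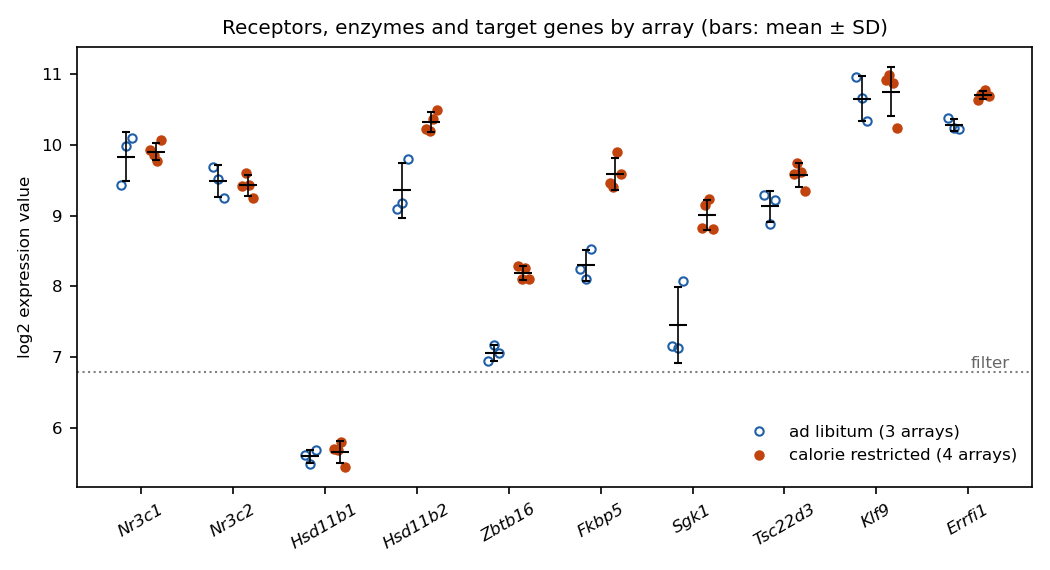
Log2 expression value (y axis) of the 10 genes (x axis) in every array, with open circles for ad libitum, filled circles for calorie restricted, and bars for the mean ± SD. Zbtb16, Fkbp5, Sgk1, Hsd11b2, Tsc22d3 and Errfi1 have all calorie restricted arrays above all ad libitum arrays, Hsd11b1 lies below the dotted filter level of 6.79, and heights of different genes are not comparable because each rests on its own probes.

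Both receptor genes were detected at similar values under the diets. Nr3c1, the glucocorticoid receptor, read 9.92, 9.85, 9.77 and 10.06 under restriction and 9.43, 9.97 and 10.09 under free feeding, listed here and below in the order of the replicate numbers. The groups overlapped, and the lowest array was ad libitum replicate 1, so the difference of 0.07 ± 0.16 (SE of the fit over all genes) was smaller than its error. Nr3c2, the mineralocorticoid receptor, read 9.42, 9.60, 9.43 and 9.24 under restriction and 9.69, 9.51 and 9.24 under free feeding. Its difference was -0.06 ± 0.13, with the highest and the lowest array both in the ad libitum group. With 1 array left out at a time the difference ranged from -0.13 to 0.20 for Nr3c1 and from -0.18 to 0.05 for Nr3c2, and both ranges include 0.

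The enzymes of hormone activation and inactivation differed from each other. Hsd11b1 regenerates corticosterone from its inactive form. Its values were 5.70, 5.70, 5.81 and 5.45 under restriction and 5.62, 5.50 and 5.69 under free feeding, all below the filter level, so it was not tested. Of all named genes, 13.6% had a lower mean. Hsd11b2 does the reverse and inactivates corticosterone, which in mineralocorticoid target cells keeps the hormone from the receptor. It read 10.22, 10.19, 10.37 and 10.49 under restriction and 9.09, 9.18 and 9.80 under free feeding. Every restricted array was above every freely fed one, with ad libitum replicate 3 closest to the restricted arrays. Its mean was 10.32 ± 0.14 (SD, n = 4) against 9.36 ± 0.39 (SD, n = 3), a difference of 0.96 ± 0.17 or 1.94-fold.

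The 3 target genes that chose the group had the largest differences in it. Zbtb16, a zinc finger transcription factor also called PLZF, read 8.29, 8.10, 8.25 and 8.10 under restriction and 6.95, 7.18 and 7.06 under free feeding. The spread within a diet was small (SD 0.10 and 0.11), and the gap between the diets was 2.18-fold (1.12 ± 0.09). Fkbp5 encodes a co-chaperone that lowers the receptor's affinity for hormone and so forms a short feedback loop. It read 9.46, 9.40, 9.90 and 9.59 under restriction and 8.25, 8.11 and 8.53 under free feeding. Calorie restricted replicate 3 was the highest array and ad libitum replicate 3 the highest of its group, with no overlap and a difference of 1.29 ± 0.15 or 2.45-fold. Sgk1 encodes a kinase that keeps sodium channels and exchangers at the cell surface. It read 8.83, 9.14, 9.24 and 8.82 under restriction and 7.16, 7.14 and 8.08 under free feeding. Ad libitum replicate 3 again stood closest to the restricted arrays, and the difference of 1.55 ± 0.24 or 2.93-fold was 1.86 without that array and 1.39 without ad libitum replicate 2.

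The other known targets had smaller differences. Tsc22d3, which encodes the anti-inflammatory leucine zipper protein GILZ, read 9.58, 9.75, 9.62 and 9.35 under restriction and 9.29, 8.88 and 9.22 under free feeding. The groups did not overlap, but calorie restricted replicate 4 and ad libitum replicate 1 were close, and the difference was 0.45 ± 0.13 or 1.36-fold. Errfi1, whose product Mig6 inhibits the EGF receptor, read 10.63, 10.72, 10.77 and 10.69 under restriction and 10.38, 10.23 and 10.22 under free feeding. It had the smallest spread within diets of the 10 genes, and a difference of 0.43 ± 0.08 or 1.34-fold. Klf9, a Krüppel-like transcription factor induced by glucocorticoid and thyroid hormone, read 10.91, 10.98, 10.86 and 10.23 under restriction and 10.96, 10.66 and 10.33 under free feeding. Here the diets overlapped, calorie restricted replicate 4 was the lowest of all arrays, and the difference was 0.10 ± 0.21.

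In all, 9 of the 10 genes passed the filter on low values, and all 9 were above its level in every array. In the fit over all genes, 3 of the 9 lay past the call threshold (Zbtb16, Fkbp5 and Sgk1, the genes that the choice was made on, against 0.656% of all genes tested). In 6 of the 9 the restricted arrays lay entirely above the freely fed ones (against 7.14%). These counts come from the comparison that chose the genes, so nothing is read from them. The count past the threshold also moved with single arrays. Sgk1 was no longer past it without any 1 of the restricted arrays or without ad libitum replicate 1 or 2, and Fkbp5 without calorie restricted replicate 1 or ad libitum replicate 2. Zbtb16 was no longer past it with the filter at the 60th percentile, which left it out. Among the 6, the highest freely fed array was ad libitum replicate 3 for Hsd11b2, Fkbp5 and Sgk1, ad libitum replicate 1 for Tsc22d3 and Errfi1, and ad libitum replicate 2 for Zbtb16. The highest restricted array was replicate 3 for Fkbp5, Sgk1 and Errfi1, replicate 2 for Tsc22d3, replicate 1 for Zbtb16 and replicate 4 for Hsd11b2.

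Promoter sequences are shown for 3 target genes to set the measured genes beside the element that the receptor is known to bind. From the RefSeq table of assembly GRCm38.p6, with a chromosome left out, 15 promoters were read for 7 of the 10 genes. For Zbtb16, Hsd11b2 and Nr3c1 no promoter was read. Each promoter window ran from 250 bases before to 50 bases after an annotated start. It was searched on both strands for the hexamer AGAACA, which reads TGTTCT on the opposite strand, for the full inverted repeat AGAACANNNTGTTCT, and for a looser repeat NGNACANNNTGTNCN that leaves the first and the third base of each hexamer free, counted from its outer end, of which the full repeat is a special case. The 250 bases before the start are printed in the direction of transcription, in lower case, with hexamers and repeats in capitals. The first is the fifth of 6 annotated starts of Sgk1 (chr10:21993640-21993889, plus strand), the second is an upstream start of Tsc22d3 (chrX:140600523-140600772, minus strand), and the last is the annotated start of Fkbp5 (chr17:28486150-28486399, minus strand).
Sgk1: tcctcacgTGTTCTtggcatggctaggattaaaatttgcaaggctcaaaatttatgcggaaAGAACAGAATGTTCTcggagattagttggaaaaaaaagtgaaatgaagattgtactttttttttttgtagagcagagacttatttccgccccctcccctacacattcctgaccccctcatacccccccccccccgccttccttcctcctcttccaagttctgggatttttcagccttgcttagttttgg
Tsc22d3: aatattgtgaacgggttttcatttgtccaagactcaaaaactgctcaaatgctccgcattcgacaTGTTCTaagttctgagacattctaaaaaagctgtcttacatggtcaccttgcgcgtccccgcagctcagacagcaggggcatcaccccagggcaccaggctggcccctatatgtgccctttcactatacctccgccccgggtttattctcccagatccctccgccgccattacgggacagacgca
Fkbp5: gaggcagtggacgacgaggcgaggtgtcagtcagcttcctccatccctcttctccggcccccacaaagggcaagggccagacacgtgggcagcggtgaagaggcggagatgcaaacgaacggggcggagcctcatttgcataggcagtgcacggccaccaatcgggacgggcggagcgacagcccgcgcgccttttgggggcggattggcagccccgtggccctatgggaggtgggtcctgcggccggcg

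The Sgk1 window held the full inverted repeat, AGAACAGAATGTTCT at chr10:21993701-21993715, beginning 189 bases before the start, and a further hexamer 242 bases before it. Among all 32851 promoter windows in the table the full repeat occurred in 3, or 0.00913%, and the other 2 belong to Acnat2 and Gm35041. The looser repeat occurred in 0.472% of windows and the hexamer in 19.0%. Of the 15 windows of these genes 4 held a hexamer, of which 3 belong to Sgk1 and 1 to Tsc22d3, where it lies 185 bases before the start. In the Fkbp5 window these letters were not found. The same search covered 36 windows of 30 other induced genes, from the list described below. The hexamer occurred in 4 of them, or 11.1%, the full repeat in 0 and the looser repeat in 3, or 8.33%. These 3 windows belong to Fam107a and Mt1. The looser repeat was chosen after seeing the data, so its share depends on that choice. The repeat planned first, with the second and the fifth base of each hexamer free, occurred in 0 of the 36, against 1.35% of all windows. A match is a description of the letters and not a measured binding site, and the array's single Sgk1 transcript cluster does not tell the 6 starts apart.

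Other known targets of the receptor were read from a list of 34 induced genes outside the 10. That list was drawn up by known role, but with earlier results of these data known, so its shares are a description. Of the 33 named on the array 27 were tested, and 25 of these were positive, with a median difference of 0.33 beside 0.01 over all genes tested. The share of positive differences was 92.6%, against 54.2% of all genes tested. By limma 0 of the 27 passed in either direction at an adjusted p below 0.05, against 0.656% called higher over all genes, while 12 had an unadjusted p below 0.05, as did 9.30% of all genes tested. In 10 of the 27, or 37.0%, all restricted arrays lay above all freely fed ones, against 7.14% of all genes tested. The count called higher was 3 without ad libitum replicate 3 and 1 without ad libitum replicate 1. The share lying above was 77.8% for the enterocyte markers. In the lists below it was 40% for steroids, 33.3% for sodium transport, 29.4% for the clock and 25% for the EGF family. It was 10.7% for paralogs, 5.26% for chaperones and co-regulators and 0% for repressed genes. Positive differences made up 100% of enterocyte markers, 83.3% of sodium transport, 82.4% of clock and 80% of steroid genes, and 33.3% of repressed genes.

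**Figure D2:**
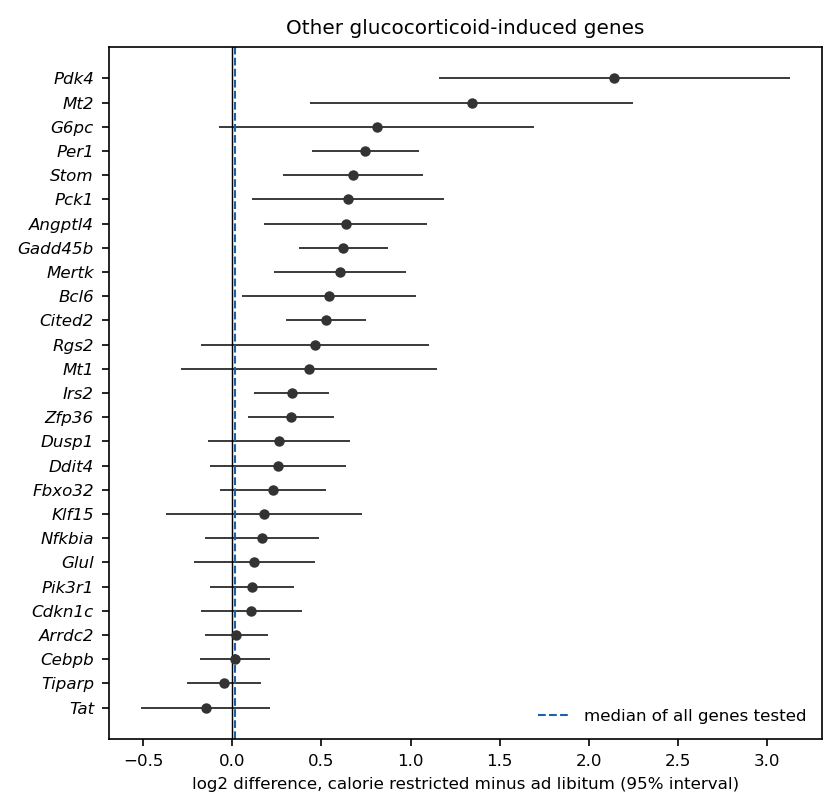
Log2 difference between the diets (x axis, calorie restricted minus ad libitum, points with 95% intervals from limma) for the 27 tested genes of the induced list (y axis). The intervals of 12 genes lie above 0, none lies below, and the dashed line marks the median of all genes tested, 0.01.

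Per1, a circadian repressor with a known response element, had the smallest p of this list. It read 9.38, 9.70, 9.55 and 9.83 under restriction and 9.04, 8.72 and 8.85 under free feeding, a difference of 0.75 ± 0.13 that missed the threshold (limma, adjusted p = 0.0562). Gadd45b, a stress-induced signalling adaptor, had a difference of 0.62 ± 0.11 (adjusted p = 0.0570 by limma). Cited2, a transcriptional co-regulator, had a difference of 0.52 ± 0.10 (adjusted p = 0.0673 by limma). Pdk4, which switches off pyruvate oxidation in fasting, had the widest gap, with 9.84, 10.10, 10.90 and 9.71 under restriction and 7.80, 7.20 and 8.98 under free feeding. Its spread was also wide, so a difference of 2.14 ± 0.43, or 4.41-fold, gave an adjusted p of 0.0891 by limma, which was 0.0253 without ad libitum replicate 3 and 0.103 to 0.346 without any 1 of the other arrays. At the other end, the classical liver target Tat was at -0.15 ± 0.16 and Tiparp at -0.05 ± 0.09. The early response phosphatase Dusp1 overlapped between diets (0.26 ± 0.17).

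Genes that glucocorticoids are known to repress were mostly dim. Of 18 inflammatory and stress hormone genes named on the array 9 were tested, 6 of them negative, with a median difference of -0.06. By limma 0 passed in either direction, and 2 of 9 had an unadjusted p below 0.05 (9.30% of all genes tested). These were the chemokine Ccl20 (-0.30 ± 0.11) and the cytokine Il18 (0.64 ± 0.25), which point in opposite directions. Pomc (-0.17 ± 0.08) and Ccl5 (0.24 ± 0.15) followed. Without ad libitum replicate 2 the differences of Il18 and Ccl5 were 0.41 and 0.07, and without ad libitum replicate 3 that of Il18 was 0.96. The sign of the list's median turned to 0.00404 after quantile normalization and to 0.03 after median centring.

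The receptor's chaperones and co-regulators were flat. Of 19 tested, 0 passed by limma in either direction, 0 had an unadjusted p below 0.05, and their differences lay between -0.09 and 0.23 with a median of 0.03. H6pd, which supplies the cofactor for Hsd11b1, had the largest at 0.23 ± 0.11 (95% interval -0.01 to 0.48). Stub1, a ubiquitin ligase for chaperone clients, was at 0.10 ± 0.08, the co-chaperone Stip1 at 0.11 ± 0.10 and the co-activator Ncoa2 at -0.09 ± 0.08. Fkbp4, the relative of Fkbp5 that favours receptor transport, read 10.95, 10.72, 10.34 and 10.90 under restriction and 10.64, 10.84 and 10.78 under free feeding. Its groups overlapped, at -0.03 ± 0.15.

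**Figure D3:**
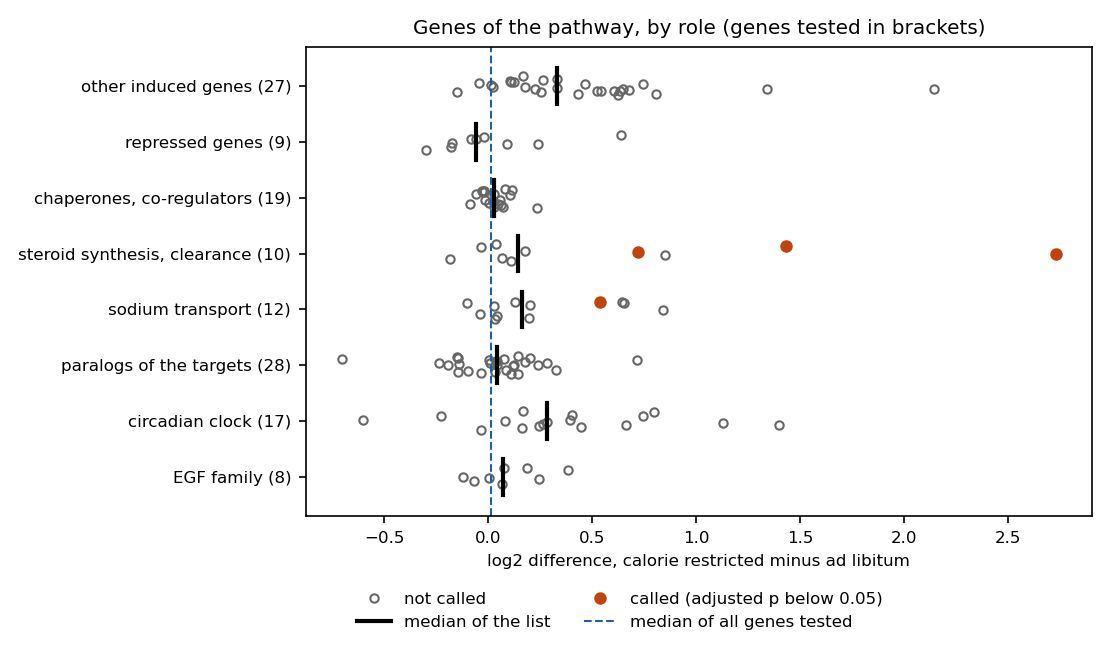
Log2 difference between the diets (x axis) for every tested gene of 8 lists (y axis, number tested in brackets), with orange points for genes called at an adjusted p below 0.05 and black bars for list medians. The lists were drawn up by known role, with earlier results of these data known. The 4 called genes lie in the steroid clearance and sodium transport lists. Of the 8 list medians drawn, that of the induced list, 0.33, lies furthest from the dashed median of all genes tested, 0.01. This order changed with the setting. The clock median was higher than the induced one without calorie restricted replicate 1 (0.360 against 0.339). With the filter at the 60th percentile the steroid median was higher (0.786 against 0.382). The enterocyte markers, not drawn here, had a median difference of 1.06.

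In the list of steroid synthesis and clearance, 3 of 10 tested genes were called higher (against 0.656% of all genes tested) and 0 lower, and all 3 are on the clearance side. The cytochrome P450 genes Cyp3a11 and Cyp3a13, whose products hydroxylate steroids and drugs, had differences of 2.73 ± 0.39 (limma, adjusted p = 0.0333) and 1.43 ± 0.23 (limma, adjusted p = 0.0415). Abcb1a, an efflux pump that exports glucocorticoids, rose by 0.72 ± 0.11, from 11.02 ± 0.19 to 11.74 ± 0.11 (limma, adjusted p = 0.0365). The sulphotransferase gene Sult2b1 was at 0.85 ± 0.15 and missed the threshold (limma, adjusted p = 0.0570). Of the 10 tested genes 8 had a positive difference and 2 a negative one. Star differed downwards, at -0.18 ± 0.08 (limma, adjusted p = 0.525), with all restricted arrays below the freely fed ones. Nr5a1, at -0.04 ± 0.11, overlapped between the diets. Each of the 3 calls was lost when any 1 calorie restricted array was left out, with adjusted p from 0.0592 to 0.117 for Cyp3a11, from 0.0842 to 0.138 for Cyp3a13 and from 0.0724 to 0.119 for Abcb1a. The calls of Cyp3a11 (0.0707) and Abcb1a (0.138) were also lost without ad libitum replicate 2, and that of Abcb1a without ad libitum replicate 3 (0.0759). After quantile normalization the calls of Cyp3a13 (adjusted p = 0.0660 by limma) and Abcb1a (0.0514) were lost, which left 1 call in the list. The synthesis enzymes Cyp11a1, Cyp11b1, Cyp21a1 and Hsd3b1 lay below the filter, from 4.35 to 6.43 as means over all arrays. Nr5a2, the nuclear receptor that drives steroid synthesis in crypts, read 10.07, 9.66, 9.58 and 10.74 under restriction and 8.85, 10.04 and 10.60 under free feeding, a wide overlap.

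In the list of sodium transport and aldosterone response, 1 of 12 tested genes was called higher (against 0.656% of all genes tested) and 0 lower. This was Slc9a3r1, the scaffold NHERF1 that anchors the sodium-proton exchanger, which rose by 0.54 ± 0.08 from 10.92 ± 0.10 to 11.46 ± 0.09 (limma, adjusted p = 0.0411). The call was lost after median centring (adjusted p = 0.0904) and without calorie restricted replicates 1, 2 or 3 (0.144, 0.140 and 0.138) or ad libitum replicates 2 or 3 (0.187 and 0.0987). The exchanger gene Slc9a3 itself read 9.38, 9.03, 9.04 and 9.09 under restriction and 8.80, 7.77 and 8.90 under free feeding, with no overlap but a low outlying ad libitum replicate 2 (0.64 ± 0.26, limma, adjusted p = 0.494). Without that array its difference was 0.28. Kcnk5 (0.65 ± 0.16) and the chloride exchanger Slc26a3 (0.84 ± 0.26) did not pass. Of the epithelial sodium channel subunits, which Sgk1 is known to protect from degradation, Scnn1a overlapped between the diets (-0.10 ± 0.30), and Scnn1b and Scnn1g were below the filter at means of 6.03 and 5.93. Nedd4l, the ubiquitin ligase that Sgk1 inhibits, was at 0.20 ± 0.10.

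Paralogs of the target genes gave a comparison within families. Of 28 tested members of the Fkbp, Tsc22d, Klf, Sgk and Zbtb families 0 passed by limma in either direction, 3 had an unadjusted p below 0.05 (a share near the 9.30% of all genes tested), and the median difference was 0.04, which became -0.02 without ad libitum replicate 3. Sgk2 read 7.42, 7.34, 7.74 and 7.79 under restriction and 7.18, 6.69 and 6.70 under free feeding, a difference of 0.72 ± 0.16 (limma, adjusted p = 0.135), whereas Sgk3 was at 0.03 ± 0.17. Zbtb20 differed the other way, at -0.70 ± 0.14 (limma, adjusted p = 0.0905), with all restricted arrays below the freely fed ones. Klf13 (0.24 ± 0.09) and Klf11 (0.33 ± 0.15, but 0.17 without ad libitum replicate 1 and 0.49 without ad libitum replicate 3) did not pass, and Tsc22d1, Tsc22d2 and Tsc22d4 lay between -0.15 and 0.11. In the EGF family, which Errfi1 acts on, 0 of 8 passed by limma in either direction and 2 had an unadjusted p below 0.05 (9.30% of all genes tested), namely the ligands Hbegf (0.39 ± 0.12) and Nrg4 (0.25 ± 0.09). The receptor genes Egfr (-0.12 ± 0.08) and Erbb2 (0.19 ± 0.16) overlapped between the diets.

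Circadian clock genes are given beside these values because corticosterone follows the day and Per1 belongs to both lists. Of 17 tested, 0 passed by limma in either direction, 6 had an unadjusted p below 0.05 (9.30% of all genes tested) and 14 were positive (54.2% of all genes tested), with a median of 0.28. The count called higher was 4 without ad libitum replicate 1, 2 after median centring and 7 with array weights, and the median was 0.15 without ad libitum replicate 3. The next smallest p-values after that of Per1 were those of Ciart (1.40 ± 0.25), Cry2 (0.66 ± 0.13) and Usp2 (0.80 ± 0.16). The freely fed arrays differed among themselves: Arntl, the activator of the clock, read 7.41, 8.59 and 9.17 in ad libitum replicates 1 to 3 and 8.11, 7.57, 7.55 and 7.94 in the restricted arrays, and its target Dbp read 9.35, 8.59 and 8.28 against 9.69, 10.09, 9.74 and 9.95. The part of the clock genes in the target genes' values was not tested.

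**Figure D4:**
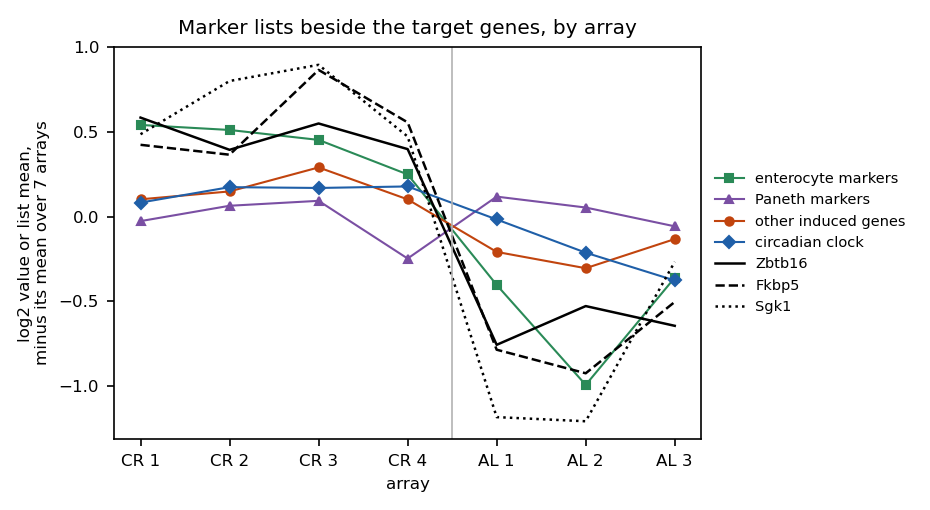
Mean log2 level of 4 gene lists and log2 level of Zbtb16, Fkbp5 and Sgk1 in each array (x axis), each minus its own mean over the 7 arrays (y axis, log2 units). The enterocyte list, the induced list, Fkbp5 and Sgk1 have their lowest point in ad libitum replicate 2, and the Paneth list spans less than the enterocyte list and has its lowest point in calorie restricted replicate 4.

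The enterocyte markers followed the target genes over the arrays in part. The mean of their list was 11.69, 11.66, 11.60 and 11.40 in the restricted arrays and 10.75, 10.16 and 10.79 in the freely fed arrays. The lowest array, ad libitum replicate 2, was also the lowest for Fkbp5, Sgk1, Tsc22d3 and Pdk4, but the highest freely fed array for Zbtb16. Within the restricted arrays the enterocyte list was highest in replicate 1, where Zbtb16 was also at its highest restricted value and Fkbp5 and Sgk1 were not. The diets did not overlap on this list, so diet and enterocyte signal cannot be told apart for genes expressed in enterocytes.

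The genes whose patterns over the 7 arrays lay closest to the 3 leading targets were found by the mean absolute difference between profiles, each centred on its own mean. Rab30, a small GTPase of the Golgi, followed Fkbp5 to within 0.04 log2 units on average, where the median over all genes tested was 0.63. It read 8.09, 7.90, 8.39 and 8.03 under restriction and 6.71, 6.59 and 7.01 under free feeding, so its order over the arrays differed from that of Fkbp5 only in the place of calorie restricted replicates 1 and 4, and its freely fed mean of 6.77 lay just below the filter level. The next closest to Fkbp5 were Creb3l3, a fasting-induced transcription factor (0.11), and the alcohol dehydrogenase gene Adh4 (0.13). Closest to Zbtb16 were the epoxide hydrolase gene Ephx2 and the chloride channel regulator gene Clca4a (0.14 each) and the haem exporter gene Flvcr1 (0.15). Closest to Sgk1 were the fatty acid translocase gene Cd36 (0.17), Cyp3a25 (0.18) and the brush border alkaline phosphatase gene Alpi (0.19), the last of which is on the enterocyte list. Cd36 and Adh4 also had freely fed means below the filter level (6.27 and 6.71), so like Rab30 they passed the filter through the restricted arrays. Likeness here was led by the step between the diets, which these genes share with the 3 targets.

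**Figure D5:**
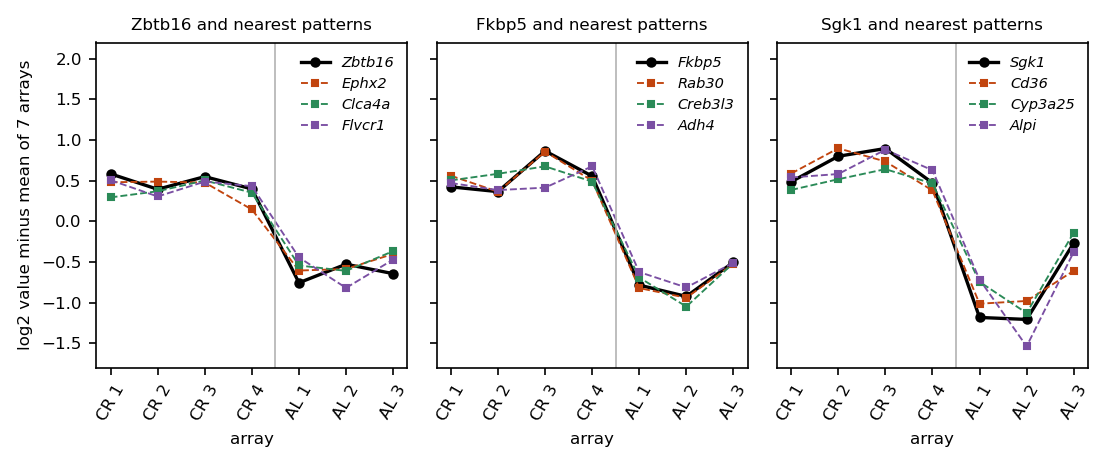
Log2 value minus the mean over the 7 arrays (y axis) in each array (x axis, CR for calorie restricted and AL for ad libitum) for Zbtb16, Fkbp5 and Sgk1 in black and the 3 genes with the closest pattern to each in colour. Rab30 lies almost on the line of Fkbp5, at a mean distance of 0.04, and Alpi falls below Sgk1 in ad libitum replicate 2.

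Among the 10 genes themselves, Tsc22d3 and Errfi1 were the closest pair, at a mean distance of 0.12. Fkbp5 lay 0.18 from both Zbtb16 and Hsd11b2 and 0.22 from Sgk1. The receptor gene Nr3c1 lay 0.52 from Zbtb16, 0.60 from Fkbp5 and 0.72 from Sgk1.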

How the data were processed

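Total RNA of 7 samples of sorted mouse Paneth cells was hybridised to Affymetrix arrays. The deposited values are log2 expression per transcript cluster, produced by the authors. The submitters' processing notes name Affymetrix Expression Console. Version, algorithm and any normalization step were not stated in these sources. The log2 scale was inferred from the range. Of 35556 clusters, 21789 have 1 gene symbol, 1621 have several and 12146 have none here. Looking up gene identifiers in the RefSeq table changed 0 symbols. A gene was its brightest cluster with 1 symbol, and genes below the 40th percentile of cluster means were left out. Each of the 10 genes has 1 such cluster. Testing used limma 3.58.1 in R 4.3.3, with lmFit and eBayes with an intensity trend, checked on simulated data. Plots were made in matplotlib 3.10.9.

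The genes and lists were chosen with earlier results of these data known. Named genes were the 10 genes, the 4 of each list with the smallest p and any called, the 3 closest patterns to each of 3 targets, 3 Paneth markers, and, for patterns and comparisons the text singles out (Tat, Tiparp, Dusp1, Fkbp4, Nr5a2, Nedd4l, Dbp, Arntl and others), genes picked after their values were seen. Of each marker list the 2 genes with the highest mean are Lyz1 and Clps (Paneth), Anpep and Apoa1 (enterocyte), Spink4 and Muc2 (goblet), Reg4 and Chga (enteroendocrine), Dclk1 and Alox5ap (tuft), Olfm4 and Slc12a2 (stem and cycling), Lyz2 and Cd3e (immune) and Col1a1 and Col1a2 (stromal), of which 0 were called. A repeat with N at the second and the fifth base of each hexamer, planned first, matched 1.35% of promoters and was replaced by the looser repeat given, chosen after seeing the data. Alternatives were quantile normalization, median centring, dropping the filter or raising it to the 60th percentile, averaging a gene's clusters, eBayes without trend or robust, array weights, a replicate block, and leaving out each array. The number of arrays limits the precision.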

Additional observations from a re-analysis of the deposited data

Results flagged for a closer look

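In 66 of the genes named, the 4 calorie restricted arrays were checked for 1 array standing apart from the other 3. The measure was the ratio of its gap to the whole range. Chance gives about 1 in 20 independent groups, but these genes share the same 4 arrays and many were picked by their values. The 8 genes with such an array are therefore given without a comparison to chance. Of the 10 genes only Klf9 was among them, with calorie restricted replicate 4 at 10.23, below the other 3. Among the restricted arrays the same replicate was lowest for Ephx2 (9.92), a close pattern to Zbtb16, and for the secretory genes Spink4 (13.98) and Reg4 (13.70). Replicate 1 was the highest restricted array for Il18 (8.34), Slc9a3 (9.38) and Sult2b1 (10.03). Replicate 2 was the lowest for Hbegf (7.99).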

How the results depend on the processing

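The differences of Zbtb16 (1.04 to 1.21), Fkbp5 (1.19 to 1.41), Sgk1 (1.39 to 1.86), Hsd11b2 (0.83 to 1.18), Tsc22d3 (0.32 to 0.67) and Errfi1 (0.38 to 0.51) kept their sign in the 16 alternatives, which groups that do not overlap make certain where an array is left out, while Klf9 ranged from -0.06 to 0.28. Of the 10 genes, 3 lay past the call threshold, 2 with the 60th percentile filter, 0 with the replicate block, 4 after median centring, 6 with array weights, and 1 to 4 with 1 array left out. The count of genes called higher, 88, was 53 after quantile normalization, 963 with array weights and 0 with the replicate block, and 12 to 97 with 1 array left out. The count called lower, 1, was 0 after quantile normalization, median centring, the 60th percentile filter and the replicate block, 2 with no filter, 392 with array weights, and 0 to 9 with 1 array left out. In the induced list the count called higher, 0, was 1 after median centring and without the trend, 12 with array weights, and 0 to 3 with 1 array left out, and the median lay between 0.26 and 0.42. Medians changed sign for chaperones and co-regulators (-0.00590 after quantile normalization, -0.000774 with array weights), for the repressed list (0.00404 after quantile normalization, 0.0278 after median centring, 0.241 with the 60th percentile filter), for paralogs (-0.0200 without ad libitum replicate 3, at most 0.0856 with 1 array left out) and for the EGF family (-0.00218 without ad libitum replicate 1, at most 0.116). The cause was not tested. Median centring moved the median of all genes tested to 0.10.

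The sample titles number the replicates and name no pairing. Same-numbered arrays of the 2 diets had correlations of -0.13, -0.27 and -0.55 in their deviations from the group means. Differently numbered arrays ranged from -0.73 to 0.64, and deviations within so few arrays depend on each other. These values therefore cannot decide whether the samples were paired. The replicate block rests on the shared number alone. Calorie restricted replicate 4 has no ad libitum array of its number, so it adds nothing to the diet difference in that fit. The difference of Sgk1, for example, was 1.61 both with the block and without that array. With the block the adjusted p of limma was 0.110 for Cyp3a11, 0.165 for Cyp3a13, 0.225 for Abcb1a and 0.175 for Slc9a3r1, and 988 genes had an unadjusted p below 0.05.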
